A study of Homo sapiens with 12 samples.

Results

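Vimentin, 2 caveolins, galectin-1 and 6 genes of the contractile actin cytoskeleton were followed in the triple-negative breast cancer (TNBC) cell line MB157 and in a derivative that had become resistant to a γ-secretase inhibitor (GSI). The genes were chosen by name, as the entries VIM, CAV1, CAV2, TAGLN, ACTA2, TPM1, TPM2, MYL9, CNN2 and LGALS1 of the count table, so 10 of its 29744 entries are described here. MB157R iN1-ICD cells are GSI-resistant MB157R cells with a doxycycline-inducible, membrane-tethered but ligand-independent form of NOTCH1 that yields its active intracellular domain (N1-ICD). MB157R iEV cells carry the empty vector, and the resistant line had been selected for 25 weeks in 1 µM of the GSI LY3039478. MB157 iSOX2 and MB157 iEV cells are the parental line with an inducible SOX2 construct or the empty vector. Each group had 3 libraries, every group received doxycycline at 1 µg/ml for 72 h, and the constructs were delivered by lentivirus. The sources used here do not say whether the resistant cells were kept in GSI until RNA was taken, or whether the line is a clone.

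The study asked how GSI-resistant cells differ from parental cells, and what SOX2 does in parental cells and N1-ICD in resistant cells. Each library held between 32773820 and 49055208 estimated counts, and levels are given as CPM, the counts of a gene relative to the size of its library, scaled by the trimmed mean of M values (TMM) over the 12 libraries. The induced genes followed their labels: NOTCH1 averaged 2322 CPM in MB157R iN1-ICD against 92.4 CPM in MB157R iEV libraries, and SOX2 averaged 308 CPM in MB157 iSOX2 against 7.10 CPM in MB157 iEV libraries. The resistant and parental lines stood far apart. A total of 104 genes had at least 10 CPM in the 6 MB157R libraries and under 0.1 CPM in the 6 MB157 libraries, and 107 genes had the opposite pattern. All 8 mammary epithelial markers were read at 1 CPM or more in each group, and the 7 smooth muscle markers summed to between 1.67 and 1.79 CPM in MB157R iN1-ICD, 0.353 and 0.436 CPM in MB157R iEV, 12.6 and 13.7 CPM in MB157 iSOX2 and 4.74 and 5.40 CPM in MB157 iEV libraries. Of these 7, MYH11 and ACTG2 passed 1 CPM in MB157 iSOX2 and ACTG2 in MB157 iEV cells, while MYOCD had no counts in any group and DES 1 count in all, in MB157R iN1-ICD. The part of these markers in the results was not tested. These are bulk libraries, in which fewer cells of a type and less RNA per cell cannot be told apart.

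Vimentin is the intermediate filament protein of mesenchymal cells and is widely used as a marker of the epithelial-to-mesenchymal transition (EMT). Caveolins build caveolae, the flask-shaped pits of the plasma membrane that flatten under mechanical tension. Smooth muscle actin, tropomyosins, transgelin, calponins and the myosin regulatory light chain form or decorate contractile actin bundles, and many of their genes are activated by serum response factor (SRF) with its actin-sensing partners MRTF-A and MRTF-B. In the breast, several of them are also products of myoepithelial cells.

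In GSI-resistant cells the caveolins were far higher and the myosin light chain MYL9 far lower, while vimentin RNA did not differ detectably. The smooth muscle actin ACTA2 was higher, by an amount that may depend on how reads shared with its near copy ACTG2 were assigned. Between MB157R iEV and MB157 iEV libraries, edgeR's quasi-likelihood test called 5 of the 10 genes higher, CAV1, CAV2, ACTA2, CNN2 and TPM1, and 2 lower, MYL9 and LGALS1. Over the 11435 genes tested in that comparison 90.2% were called, 45% higher and 45.3% lower, so a call by itself was common and the members' share of calls was below it. The libraries of both groups did not overlap for 8 of the 10 genes, against 90.9% of all genes tested. Of the 10 genes, 4 were called at least 2-fold higher and 1 at least 2-fold lower, where 20.7% and 18.1% of all genes tested were. The median log2 fold change was 0.48 over the 10 genes and -0.00 over all genes tested.

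In SOX2-induced parental cells the changes were smaller. Of the 9 genes tested in MB157 iSOX2 against MB157 iEV libraries, CAV2, TAGLN, MYL9 and CAV1 were called higher and LGALS1, VIM, TPM1 and CNN2 lower. The background was 66.4% called among 10904 genes, 32.5% higher and 33.9% lower, and scaling by library totals alone shifted the higher share of all calls to 60.6%, against 48.9% with TMM, without changing the call or direction of any of the 9 genes. The libraries of both groups did not overlap for 7 of the 9 genes, with a background of 70.1%. LGALS1 alone of the 9 reached a 2-fold difference, where 3.46% of all genes tested were called at least 2-fold higher and 2.6% at least 2-fold lower. The median log2 fold change of the 9 genes was -0.09, beside -0.00 over all genes tested.

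In N1-ICD-induced resistant cells all 10 genes were called by edgeR's quasi-likelihood test. TAGLN, TPM2, TPM1 and MYL9 rose and CAV1, LGALS1, ACTA2, CAV2, VIM and CNN2 fell in MB157R iN1-ICD against MB157R iEV libraries, with a background of 59.1% called among 11210 genes, 29.8% higher and 29.3% lower. TAGLN was the 1 gene called at least 2-fold higher and CAV1 the 1 called at least 2-fold lower, beside 4.48% and 0.687% of all genes tested. The libraries did not overlap for any of the 10 genes, beside 65% of all genes tested. The median log2 fold change was -0.45 over the 10 genes and -0.00 over all genes tested. The resistant comparison shares its MB157 iEV libraries with the SOX2 comparison and its MB157R iEV libraries with the N1-ICD comparison, so the 3 sets of values are not independent.

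**Figure D1:**
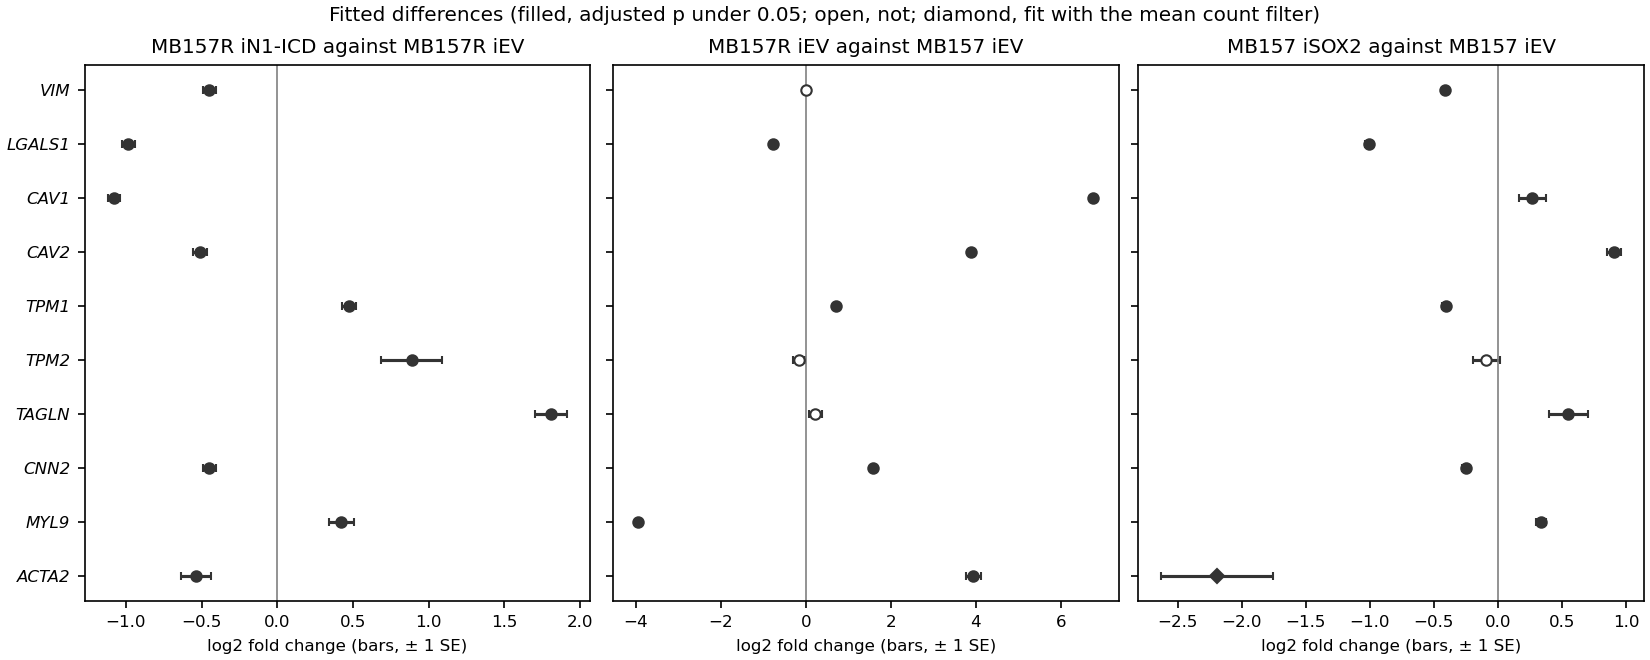
Fitted log2 fold changes of the 10 genes (points, with bars of 1 SE) in the 3 comparisons, whose horizontal axes differ in range. CAV1 reached 6.75 in MB157R iEV against MB157 iEV libraries, where VIM lay at -0.00, and TAGLN was the highest point in the N1-ICD panel at 1.81.

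VIM (chromosome 10, 17228241 to 17237593, plus strand, hg38) encodes vimentin. It had 473, 444 and 482 CPM in MB157R iN1-ICD libraries, 633, 658 and 629 CPM in MB157R iEV libraries, 471, 484 and 488 CPM in MB157 iSOX2 libraries and 634, 647 and 643 CPM in MB157 iEV libraries. The empty-vector libraries of both lines overlapped, as did those of both induced groups, and each induced group lay wholly below its own control. Induction of N1-ICD lowered VIM by 1.36-fold (log2 fold change -0.45, SE 0.043, adjusted p = 7.10e-06, edgeR), and SOX2 lowered it by 1.33-fold (log2 fold change -0.41, SE 0.026, adjusted p = 7.64e-10). Between the lines the log2 fold change was -0.00 (SE 0.033, adjusted p = 0.977). With no filter on low counts it was 0.08 and passed the threshold narrowly (adjusted p = 0.0485), the lowest of the values under the alternative settings, which reached 0.985. The paper differs here, as it names vimentin among several markers with raised mRNA and protein in MB157R against MB157 cells. It lists a vimentin antibody for immunoblots but no VIM primers for qPCR, so whether its mRNA statement covers vimentin is not clear. The values given here are RNA of the empty-vector groups only, and the cause of the difference was not tested. VIM-AS1, whose exons overlap those of VIM on the opposite strand, averaged 0.642 CPM in MB157R iN1-ICD, 0.791 CPM in MB157R iEV, 4.06 CPM in MB157 iSOX2 and 3.40 CPM in MB157 iEV libraries, with the MB157 groups above the MB157R groups.

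Those of 10590 genes averaging 10 CPM or more whose centred log2 levels over the 12 libraries lay closest to VIM were LDHA, H2AFZ and HNRNPR. Their root mean square differences from VIM were 0.039, 0.045 and 0.049 on the log2 scale. LDHA, the lactate dehydrogenase A chain, averaged 556 CPM in MB157R iN1-ICD, 793 CPM in MB157R iEV, 573 CPM in MB157 iSOX2 and 801 CPM in MB157 iEV libraries. That its induced groups lay below both controls follows from its choice by likeness to VIM. The 12 libraries fall into 4 groups, so such likeness rests on few independent points.

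Other intermediate filament genes took several directions. Of 17 genes of non-keratin filaments and their linkers, 11 were tested between the lines, with 7 called higher and 4 lower in MB157R iEV, where 45% and 45.3% of all genes were. The nuclear lamin genes LMNA, LMNB1 and LMNB2 were, like VIM, called lower after SOX2 (log2 fold changes -0.25, -0.57 and -0.20) and after N1-ICD (-0.52, -0.42 and -0.39). Between the lines LMNA was lower and LMNB1 and LMNB2 higher in MB157R iEV (log2 fold changes -0.89, 0.68 and 0.72). NES, which encodes nestin, a partner of vimentin in mixed filaments, averaged 34.7 ± 2.58 CPM in MB157R iN1-ICD, 13.2 ± 0.849 CPM in MB157R iEV, 1.03 ± 0.0478 CPM in MB157 iSOX2 and 0.959 ± 0.289 CPM in MB157 iEV libraries (SD, n = 3 each). It was called higher in the resistant line (log2 fold change 3.81, SE 0.16, adjusted p = 4.57e-11, edgeR) and higher again after N1-ICD (log2 fold change 1.40, SE 0.074, adjusted p = 6.96e-08). SYNM, encoding synemin, also rose after N1-ICD, to 97.6 CPM against 27.5 CPM in MB157R iEV libraries (log2 fold change 1.84). PLEC, encoding the linker plectin, fell to 442 CPM in MB157R iN1-ICD against 1253 CPM in MB157R iEV libraries (log2 fold change -1.50). After N1-ICD 3 of the 12 tested genes of this list rose and 6 fell, beside 29.8% and 29.3% of all genes, and after SOX2 5 of 10 rose and 3 fell, beside 32.5% and 33.9%.

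CAV1 and CAV2 lie next to each other on the long arm of chromosome 7, 16453 bases apart (CAV2, 116287380 to 116508541; CAV1, 116524994 to 116561179, both on the plus strand, hg38). Caveolin-1 is the main scaffold of caveolae outside muscle and caveolin-2 joins it in mixed oligomers. CAV1 had 401, 405 and 410 CPM in MB157R iN1-ICD, 857, 831 and 898 CPM in MB157R iEV, 9.83, 10.7 and 8.36 CPM in MB157 iSOX2 and 8.01, 8.74 and 7.29 CPM in MB157 iEV libraries. The resistant libraries lay far above the parental ones, by 108-fold between the empty-vector groups (log2 fold change 6.75, SE 0.062, adjusted p = 6.87e-17, edgeR). N1-ICD lowered CAV1 by 2.11-fold (log2 fold change -1.08, SE 0.039, adjusted p = 3.61e-09), and the induced cells still stood far above both parental groups.

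After SOX2 the CAV1 libraries overlapped those of the control. The test called a small rise (log2 fold change 0.27, SE 0.10, adjusted p = 0.0305, edgeR), which was lost without MB157 iEV library 1 or 3, or without MB157 iSOX2 library 1 or 2 (adjusted p between 0.0590 and 0.143). SOX2 itself averaged 308 CPM in MB157 iSOX2 libraries, beside 60.3 CPM in MB157R iEV libraries. These groups differ in line and in the length of exposure, and whether SOX2 has a part in the CAV1 level of resistant cells was not tested.

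CAV2 had 209, 231 and 204 CPM in MB157R iN1-ICD, 304, 303 and 316 CPM in MB157R iEV, 39.2, 37.3 and 39.7 CPM in MB157 iSOX2 and 19.2, 21.6 and 21.3 CPM in MB157 iEV libraries. No pair of groups overlapped. Taking folds from the fit, it was 14.8-fold higher in the resistant line (log2 fold change 3.89, SE 0.048, adjusted p = 5.02e-16, edgeR), 1.87-fold higher after SOX2 (log2 fold change 0.90, SE 0.054, adjusted p = 3.33e-10) and 1.42-fold lower after N1-ICD (log2 fold change -0.51, SE 0.048, adjusted p = 6.42e-06). Per kilobase of the reference transcript, CAV1 was 2.28 ± 0.155 times CAV2 in MB157R iN1-ICD, 3.37 ± 0.0613 times in MB157R iEV, 0.300 ± 0.0466 times in MB157 iSOX2 and 0.467 ± 0.0482 times in MB157 iEV libraries (SD, n = 3 each). CAV1 was the more abundant caveolin per kilobase in resistant cells and CAV2 in parental cells. The muscle caveolin CAV3 took at most 0.338% of caveolin counts per kilobase in any library.

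The genes tested on either side of the caveolins were called in the same directions in all 3 comparisons. They were singled out after their values were seen. TES, encoding the focal adhesion protein testin, averaged 213 CPM in MB157R iN1-ICD, 283 CPM in MB157R iEV, 102 CPM in MB157 iSOX2 and 82.6 CPM in MB157 iEV libraries. MET, the hepatocyte growth factor receptor gene, averaged 714 CPM in MB157R iN1-ICD, 843 CPM in MB157R iEV, 44.6 CPM in MB157 iSOX2 and 22.6 CPM in MB157 iEV libraries. The edgeR log2 fold changes between the lines were 1.78 for TES (adjusted p = 2.36e-14) and 5.22 for MET (adjusted p = 2.71e-16), beside 3.89 for CAV2 and 6.75 for CAV1. After SOX2 TES and MET rose by 0.31 and 0.98 on the log2 scale (adjusted p = 3.80e-07 and 2.29e-11), and after N1-ICD they fell by 0.40 and 0.23 (adjusted p = 2.95e-06 and 0.00316).

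**Figure D2:**
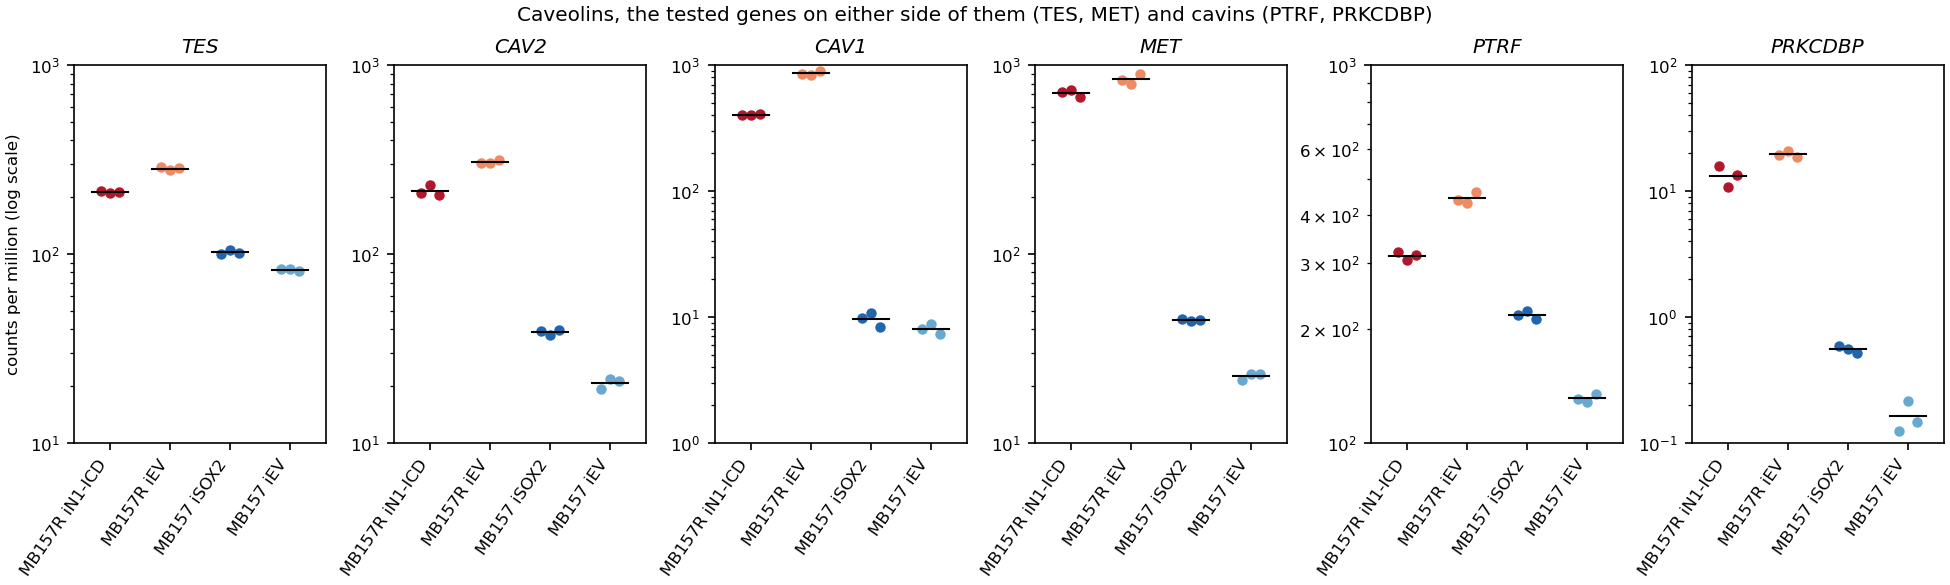
Levels in CPM on log axes, with points for libraries and bars for means of 3 libraries, of the caveolins, of TES and MET on either side of them on chromosome 7, and of PTRF and PRKCDBP, the table's names for cavin-1 and cavin-3. In all 6 panels MB157R iEV was the group with the highest mean and MB157 iEV the one with the lowest.

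Cavins coat caveolae from the cytosol and are needed for their shape. In the count table they stand under older symbols, and none is in the filtered tables, so they were tested in a fit over all genes with a mean count of at least 5. PTRF (cavin-1) had 320, 305 and 315 CPM in MB157R iN1-ICD, 441, 431 and 462 CPM in MB157R iEV, 218, 223 and 212 CPM in MB157 iSOX2 and 131, 128 and 135 CPM in MB157 iEV libraries, and no groups overlapped. Its log2 fold changes were 1.84 in the resistant line, 0.73 after SOX2 and -0.52 after N1-ICD (adjusted p = 2.75e-13, 3.44e-11 and 1.91e-06, edgeR), in a fit that called 86.7%, 56.3% and 52.8% of genes (42.9% higher and 43.8% lower between the lines, 28.4% and 27.9% after SOX2, 27.6% and 25.3% after N1-ICD). PRKCDBP (cavin-3) averaged 13.3 CPM in MB157R iN1-ICD, 19.6 CPM in MB157R iEV, 0.556 CPM in MB157 iSOX2 and 0.161 CPM in MB157 iEV libraries, with log2 fold changes of 6.94, 1.74 and -0.57 in the same 3 comparisons (adjusted p = 3.94e-13, 0.00155 and 0.00166). MURC (cavin-4) had log2 fold changes of 1.33 in the resistant line, -0.13 after SOX2 and -0.48 after N1-ICD (adjusted p = 1.92e-07, 0.457 and 0.00203, edgeR). SDPR (cavin-2) had 26 counts in all in MB157R iN1-ICD and 11 in MB157R iEV libraries, and none in the 6 parental libraries, where 3 counts over a group are 0.0231 CPM in MB157 iSOX2 and 0.0260 CPM in MB157 iEV. Of the 14 genes listed as caveola companions, 9 were in the filtered table of the lines, with 7 higher and 2 lower in MB157R iEV, where 45% and 45.3% of all genes in that table were. EHD4, encoding an ATPase of the membrane, was among the rises (146 CPM in MB157R iEV against 34.5 CPM in MB157 iEV, log2 fold change 2.08), and PACSIN1, a membrane-bending protein of neurons, among the falls (2.52 CPM in MB157R iEV against 18.1 CPM in MB157 iEV, log2 fold change -2.84). After SOX2 2 of 9 companions in the filtered table rose and 5 fell, beside 32.5% and 33.9% of all genes. After N1-ICD 1 of 8 rose and 5 fell, beside 29.8% and 29.3%.

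Genes most like CAV1 over the 12 libraries were KCNMA1, MIR100HG and ITGA6, with root mean square differences of 0.13, 0.18 and 0.19 on the log2 scale. ITGA6, the integrin α6 chain, averaged 1108 CPM in MB157R iN1-ICD, 2005 CPM in MB157R iEV, 29.7 CPM in MB157 iSOX2 and 24.4 CPM in MB157 iEV libraries. KCNMA1, a potassium channel gene, had 2777 counts in all in MB157R iN1-ICD and 6095 in MB157R iEV libraries, against 3 in MB157 iSOX2 and 1 in MB157 iEV libraries. All 3 averaged higher in both MB157R groups than in both MB157 groups, and lower in MB157R iN1-ICD than in MB157R iEV libraries. They were picked for this likeness to CAV1 in the same libraries, so the shared order follows from the choice.

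ACTA2 (chromosome 10, 88935074 to 88991339, minus strand, hg38) encodes smooth muscle α-actin. It was scarce, with 7.60, 6.19 and 6.75 CPM in MB157R iN1-ICD, 9.68, 9.52 and 10.8 CPM in MB157R iEV, 0.221, 0.0896 and 0.113 CPM in MB157 iSOX2 and 0.493, 0.594 and 0.834 CPM in MB157 iEV libraries. No groups overlapped. It was 15.4-fold higher in the resistant line (log2 fold change 3.94, SE 0.16, adjusted p = 5.86e-11, edgeR) and 1.45-fold lower after N1-ICD (log2 fold change -0.54, SE 0.10, adjusted p = 0.000901). The parental levels rest on 18 counts in MB157 iSOX2 and 75 in MB157 iEV over 3 libraries, and the gene is not in the filtered table of the SOX2 comparison. In the fit with the mean count filter it was lower after SOX2 (log2 fold change -2.19, SE 0.44, adjusted p = 0.000534), beside 27.9% of genes called lower.

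The enteric actin ACTG2, whose protein is nearly identical to that of ACTA2, went the other way between the lines. It averaged 0.0386 CPM in MB157R iN1-ICD, 0.0235 CPM in MB157R iEV, 5.12 CPM in MB157 iSOX2 and 4.74 CPM in MB157 iEV libraries. Reads shared between such copies can be split by the quantifier, which can leave fractions in the estimated counts. Those of ACTA2 and ACTG2 were whole numbers in all 12 libraries. ACTA1, another muscle actin, had fractions in MB157 iSOX2 replicates 1 and 2, at 6.89 and 8.967 counts. How shared reads were assigned was not tested, so the separate levels may be uncertain. Summed per kilobase, both genes reached 5.10 ± 0.534 CPM in MB157R iN1-ICD, 7.43 ± 0.507 CPM in MB157R iEV, 3.52 ± 0.239 CPM in MB157 iSOX2 and 3.64 ± 0.353 CPM in MB157 iEV libraries (SD, n = 3 each). The sum was thus 2.04-fold higher in MB157R iEV than in MB157 iEV libraries, against 15.4-fold for ACTA2 alone, and the MB157 iSOX2 and MB157 iEV libraries overlapped. Per kilobase ACTA2 took 0.158% of actin counts in MB157R iN1-ICD, 0.171% in MB157R iEV, 0.00221% in MB157 iSOX2 and 0.00875% in MB157 iEV libraries. The leading cytoplasmic actin also differed between the lines. ACTB took 66.2 ± 0.853% of actin counts per kilobase in MB157R iN1-ICD, 65.8 ± 0.0387% in MB157R iEV, 26.0 ± 0.237% in MB157 iSOX2 and 25.6 ± 0.233% in MB157 iEV libraries (SD, n = 3 each), with ACTG1 taking nearly all of the rest. Between the lines ACTB was called higher (log2 fold change 1.05) and ACTG1 lower (log2 fold change -1.44, adjusted p = 9.07e-12 and 6.30e-13, edgeR).

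FAS, the death receptor gene that overlaps exons of ACTA2 on the opposite strand, had 21.0, 24.8 and 22.3 CPM in MB157R iN1-ICD and 28.7, 30.4 and 29.3 CPM in MB157R iEV libraries, against 3 counts over the MB157 iSOX2 and 4 over the MB157 iEV libraries. It was singled out after its values were seen. Counting used the strand, but whether any FAS reads entered the ACTA2 counts was not tested. ACTA2-AS1, also on the opposite strand, had no counts in any library.

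Promoters of 7 of the 10 genes were found in the RefSeq table (12 start sites, assembly GRCh38.p14, 250 bases before to 50 after each start). TAGLN, MYL9 and LGALS1 had none there and were not searched. They were searched on both strands for the CArG box to which SRF binds (CC, a run of A or T, GG), for GGAATG (TEAD factors), TGGGAA (RBPJ, the DNA-binding partner of N1-ICD) and ACAATG (SOX factors). An exact CArG box stood in 1 of the 12 windows, at CNN2, and in 1.29% of all 35116 promoters. Boxes with a mismatch were not searched for, so windows without an exact match, that of ACTA2 among them, may still hold such forms. GGAATG and TGGGAA both stood in 1 window, that of the downstream ACTA2 start, and in 14.0% and 24.0% of all promoters, while ACAATG stood in none of the 12 and in 10.8% of all. A match is a description of letters and not a binding site. The 2 windows with matches are shown with the matches in capitals, followed by 1 window each of CAV1 and CAV2, the neighbouring pair on chromosome 7, in which none of the 4 motifs was found.
CNN2 promoter (chr19:1026358-1026657, plus strand, CArG box in capitals at positions -89 to -80 from the start): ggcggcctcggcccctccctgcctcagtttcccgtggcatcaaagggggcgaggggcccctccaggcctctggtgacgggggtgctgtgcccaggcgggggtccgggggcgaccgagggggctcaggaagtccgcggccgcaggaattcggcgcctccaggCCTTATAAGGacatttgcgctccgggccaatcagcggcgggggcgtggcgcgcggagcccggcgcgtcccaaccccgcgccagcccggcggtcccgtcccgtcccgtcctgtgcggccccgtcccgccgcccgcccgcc
ACTA2 promoter (chr10:88952724-88953023, minus strand, GGAATG at -183 to -178 and TGGGAA at -64 to -59 in capitals): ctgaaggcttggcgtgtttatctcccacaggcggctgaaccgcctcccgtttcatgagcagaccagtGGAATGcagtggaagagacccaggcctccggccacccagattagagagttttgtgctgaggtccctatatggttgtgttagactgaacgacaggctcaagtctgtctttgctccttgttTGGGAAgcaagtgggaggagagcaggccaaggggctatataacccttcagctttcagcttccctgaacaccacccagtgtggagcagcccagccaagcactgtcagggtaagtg
CAV1 promoter (chr7:116524759-116525058, plus strand): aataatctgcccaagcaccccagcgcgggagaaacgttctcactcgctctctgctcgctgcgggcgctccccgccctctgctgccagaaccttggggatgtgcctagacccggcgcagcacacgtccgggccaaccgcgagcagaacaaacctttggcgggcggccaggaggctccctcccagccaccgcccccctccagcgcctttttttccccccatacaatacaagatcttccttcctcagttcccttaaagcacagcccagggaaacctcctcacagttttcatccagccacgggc
CAV2 promoter (chr7:116499488-116499787, plus strand): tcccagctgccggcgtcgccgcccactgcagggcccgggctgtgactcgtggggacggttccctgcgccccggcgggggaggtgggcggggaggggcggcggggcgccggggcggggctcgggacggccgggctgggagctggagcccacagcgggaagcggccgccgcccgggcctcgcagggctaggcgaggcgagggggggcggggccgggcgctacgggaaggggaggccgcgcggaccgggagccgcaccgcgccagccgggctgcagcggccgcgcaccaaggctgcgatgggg

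TPM1 and TPM2 encode tropomyosins, rods that lie along actin filaments and set which proteins may bind. TPM1 (chromosome 15, 63042620 to 63071915) had 334, 353 and 375 CPM in MB157R iN1-ICD, 249, 264 and 257 CPM in MB157R iEV, 122, 116 and 115 CPM in MB157 iSOX2 and 154, 157 and 157 CPM in MB157 iEV libraries. The groups kept apart in every pair. TPM1 was 1.65-fold higher in the resistant line (log2 fold change 0.72, SE 0.034, adjusted p = 2.35e-10, edgeR), 1.39-fold higher after N1-ICD (log2 fold change 0.47, SE 0.047, adjusted p = 9.98e-06) and 1.33-fold lower after SOX2 (log2 fold change -0.41, SE 0.032, adjusted p = 1.04e-08).

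TPM2 (chromosome 9, 35681992 to 35690056, minus strand) was low. It had 10.5, 18.2 and 16.1 CPM in MB157R iN1-ICD, 8.99, 9.33 and 6.09 CPM in MB157R iEV, 9.80, 7.59 and 7.91 CPM in MB157 iSOX2 and 9.03, 8.29 and 9.67 CPM in MB157 iEV libraries. The last 3 of these groups overlapped, and only the N1-ICD libraries stood above, with a wide spread of their own (log2 fold change 0.89, SE 0.20, adjusted p = 0.00311, edgeR). The other 2 comparisons did not pass the threshold (log2 fold change -0.15, adjusted p = 0.333 in the resistant line, and -0.09, adjusted p = 0.451 after SOX2). Per kilobase, TPM1 took 46.7 ± 1.26% of tropomyosin counts in MB157R iN1-ICD, 34.1 ± 0.914% in MB157R iEV, 30.0 ± 0.936% in MB157 iSOX2 and 33.9 ± 0.477% in MB157 iEV libraries (SD, n = 3 each). Its gain after N1-ICD came with falls of TPM3 and TPM4 (log2 fold changes -0.32 and -0.32, adjusted p = 0.000187 and 2.70e-05, edgeR). Per kilobase the 4 tropomyosins together averaged 623 ± 21.7 CPM, against 619 ± 1.68 CPM in MB157R iEV libraries. This total depends on the reference transcripts, of 7064 bases for TPM3 and 1217 for TPM1. Without that division, MB157R iN1-ICD libraries averaged 354 CPM for TPM1, 14.9 for TPM2, 435 for TPM3 and 638 for TPM4. MB157R iEV libraries averaged 256, 8.14, 548 and 801 CPM in the same order.

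TAGLN (chromosome 11, 117199370 to 117207464, plus strand) encodes transgelin or SM22α, an actin-bundling protein and a classical SRF target. Its levels were 8.72, 8.48 and 8.67 CPM in MB157R iN1-ICD, 2.32, 2.50 and 2.60 CPM in MB157R iEV, 3.26, 3.16 and 2.85 CPM in MB157 iSOX2 and 2.003, 2.04 and 2.28 CPM in MB157 iEV libraries. The N1-ICD libraries formed a tight group well above the rest, 3.51-fold over their control (log2 fold change 1.81, SE 0.11, adjusted p = 1.61e-07, edgeR). SOX2 raised TAGLN by 1.46-fold (log2 fold change 0.55, SE 0.15, adjusted p = 0.00436). Between the lines the libraries just failed to overlap, but the difference did not pass the threshold (log2 fold change 0.23, SE 0.15, adjusted p = 0.173). Exons of PCSK7 overlap TAGLN on the opposite strand, and that gene averaged between 41.2 and 49.9 CPM in the 4 groups and did not follow TAGLN.

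TAGLN was a minor transgelin. Per kilobase TAGLN2, the widely expressed form, took 94.4% of the family in MB157R iN1-ICD, 95.2% in MB157R iEV, 99.89% in MB157 iSOX2 and 99.93% in MB157 iEV libraries. The neural form TAGLN3 was read at 26.8 CPM in MB157R iEV against 0.116 CPM in MB157 iEV libraries (log2 fold change 7.86, adjusted p = 2.63e-13, edgeR). Closest to TAGLN in pattern were RASA4, MYO5B and TMEM173 (root mean square differences 0.11, 0.14 and 0.15 on the log2 scale). MYO5B, a vesicle-carrying myosin, averaged 150 CPM in MB157R iN1-ICD, 48.2 CPM in MB157R iEV, 58.3 CPM in MB157 iSOX2 and 34.9 CPM in MB157 iEV libraries.

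CNN2 (chromosome 19, 1026586 to 1039068, plus strand) encodes the non-muscle calponin that steadies actin filaments. It had 377, 352 and 367 CPM in MB157R iN1-ICD, 507, 508 and 489 CPM in MB157R iEV, 136, 145 and 141 CPM in MB157 iSOX2 and 168, 163 and 172 CPM in MB157 iEV libraries, with no overlap. It was 2.99-fold higher in the resistant line (log2 fold change 1.58, SE 0.036, adjusted p = 1.23e-13, edgeR), 1.19-fold lower after SOX2 (log2 fold change -0.25, SE 0.033, adjusted p = 5.06e-06) and 1.36-fold lower after N1-ICD (log2 fold change -0.45, SE 0.040, adjusted p = 4.36e-06). CNN3, the acidic calponin, had log2 fold changes of 0.13, 0.20 and -0.11 in the same order. CNN2 took 53.6 ± 0.139% of calponin counts per kilobase in MB157R iEV and 29.7 ± 0.276% in MB157 iEV libraries (SD, n = 3 each). CNN1, the smooth muscle calponin, averaged 0.655 CPM in MB157R iN1-ICD, 0.112 CPM in MB157R iEV and 0.230 CPM in MB157 iSOX2, and had no counts in MB157 iEV libraries.

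MYL9 (chromosome 20, 36541497 to 36551447, plus strand) encodes a regulatory light chain of myosin II that sets contraction when phosphorylated. MYL9 had 11.2, 11.5 and 10.8 CPM in MB157R iN1-ICD, 8.86, 8.59 and 7.79 CPM in MB157R iEV, 154, 161 and 171 CPM in MB157 iSOX2 and 128, 123 and 133 CPM in MB157 iEV libraries. It was 15.2-fold lower in the resistant line (log2 fold change -3.93, SE 0.056, adjusted p = 1.70e-15, edgeR) and somewhat higher after SOX2 (log2 fold change 0.34, SE 0.039, adjusted p = 1.24e-06) and after N1-ICD (log2 fold change 0.42, SE 0.084, adjusted p = 0.00130). The paralogs MYL12A and MYL12B had log2 fold changes between the lines of 0.09 and -0.06 (adjusted p = 0.0305 and 0.123), and MYL9 took 0.662 ± 0.0562% of the family's counts per kilobase in MB157R iEV and 9.31 ± 0.347% in MB157 iEV libraries (SD, n = 3 each). Non-muscle heavy chain genes took both directions between the lines. MYH9 was higher, at 1308 CPM in MB157R iEV against 29.6 CPM in MB157 iEV libraries (log2 fold change 5.47, adjusted p = 1.39e-15, edgeR). MYH10 was also higher (log2 fold change 0.53), while MYH14 was lower, like MYL9 (log2 fold change -2.30, adjusted p = 1.44e-13).

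LGALS1 (chromosome 22, 37675636 to 37679802, plus strand) encodes galectin-1, a secreted and cytosolic lectin common in mesenchymal cells. It had 109, 113 and 105 CPM in MB157R iN1-ICD, 206, 219.5 and 225 CPM in MB157R iEV, 187, 181 and 186 CPM in MB157 iSOX2 and 359, 382 and 372 CPM in MB157 iEV libraries, with no overlap between groups. LGALS1 was the only one of the 10 genes called lower in all 3 comparisons. It was 1.71-fold lower in the resistant line (log2 fold change -0.77, SE 0.041, adjusted p = 6.86e-10, edgeR), 2.005-fold lower after SOX2 (log2 fold change -1.003, SE 0.030, adjusted p = 5.16e-14) and 1.98-fold lower after N1-ICD (log2 fold change -0.98, SE 0.043, adjusted p = 1.60e-08). Per kilobase it led the 10 genes in MB157R iEV, MB157 iSOX2 and MB157 iEV cells, and TPM1 led in MB157R iN1-ICD cells. Of 11 galectin genes and binders listed, 4 were tested between the lines and called higher in MB157R iEV, as were 45% of all genes, LGALS3BP most of all with 311.5 CPM in MB157R iEV against 0.799 CPM in MB157 iEV libraries (log2 fold change 8.59). After SOX2 both tested members of that list were higher, beside 32.5% of all genes, and after N1-ICD 3 of 4 were higher, beside 29.8%, and 1, LGALS3BP, lower (log2 fold change -0.23).

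Ordered by group mean, the 10 genes gave 30 neighbouring pairs of groups, of which 25 did not overlap. The exceptions were both pairs of VIM named above, CAV1 in MB157 iSOX2 and MB157 iEV cells, and the lower 2 pairs of TPM2. MB157R iEV was the highest group for CAV1, CAV2, ACTA2 and CNN2, MB157R iN1-ICD for TPM1, TPM2 and TAGLN, MB157 iSOX2 for MYL9, and MB157 iEV for LGALS1 and, narrowly, for VIM. Summed, the 10 genes reached 1957 ± 25.6 CPM in MB157R iN1-ICD, 2813 ± 27.9 CPM in MB157R iEV, 1146 ± 12.9 CPM in MB157 iSOX2 and 1505 ± 20.3 CPM in MB157 iEV cells (SD, n = 3 each).

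The wider list of contractile genes showed no single direction. Of 41 actin, myosin and calponin companions, 32 were tested between the lines, with 18 higher and 13 lower in MB157R iEV, where 45% and 45.3% of all genes were, and a median log2 fold change of 0.16. After SOX2 10 of 31 rose and 17 fell, beside 32.5% and 33.9% of all genes, among the rises VCL (vinculin, 394 CPM in MB157 iSOX2 against 229 CPM in MB157 iEV). After N1-ICD 5 of 31 rose and 14 fell, beside 29.8% and 29.3%, with MYH14, a non-muscle myosin heavy chain, rising to 167 CPM against 24.4 CPM in MB157R iEV libraries and FLNA, filamin A, falling to 1192 CPM against 1728 CPM in MB157R iEV libraries. SRF itself was lower in MB157R iEV, at 49.7 CPM against 87.9 CPM in MB157 iEV libraries (log2 fold change -0.82, adjusted p = 1.11e-09, edgeR). TGFBR2, the type II receptor of TGF-β, which induces several of these genes in other cells, was higher in the resistant line (85.6 CPM in MB157R iEV against 4.23 CPM in MB157 iEV, log2 fold change 4.34) and after SOX2 (18.5 CPM in MB157 iSOX2, log2 fold change 2.13).

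Of 15 tested target genes of SRF and YAP outside the 10, 13 were called higher and 2 lower in the resistant line, where 45% and 45.3% of all genes were, with a median log2 fold change of 0.62 against -0.00 for all genes tested. After SOX2 5 of 15 rose and 6 fell, beside 32.5% and 33.9% of all genes, and after N1-ICD 6 rose and 7 fell, beside 29.8% and 29.3%. ANKRD1, a classical YAP target, averaged 244 CPM in MB157R iN1-ICD against 26.7 CPM in MB157R iEV libraries (log2 fold change 3.20, adjusted p = 5.46e-10, edgeR), whereas EGR1, an immediate-early SRF target, fell to 5.28 CPM against 17.5 CPM in MB157R iEV libraries (log2 fold change -1.71, adjusted p = 7.45e-06). CTGF and CYR61, matricellular targets of YAP that the table lists under these older symbols, parted after N1-ICD, with log2 fold changes of 1.58 and -0.23 in the fit with the mean count filter (adjusted p = 1.20e-08 and 0.00230). Between the lines they also parted, at -2.20 and 1.12 (adjusted p = 7.38e-12 and 4.71e-11).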

How the data were processed

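Stranded mRNA libraries were sequenced, 3 for each of 4 groups. The authors ran STAR and Salmon on hg38 through nf-core/rnaseq with the reverse-strand setting, and deposited estimated counts per gene, not normalized, for all 12 libraries. The authors also deposited 3 filtered tables of log2 CPM (TMM in edgeR 3.42.4, voom in limma 3.56.2), used here only for their gene lists. The gene annotation is not given in the sources used here.

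The estimated counts were rounded to whole numbers and tested with edgeR's quasi-likelihood test on the 6 libraries of each comparison, scaled by TMM, taking library sizes over the whole table and testing the genes of the matching filtered table (R 4.3.3, edgeR 4.0.16). A gene was called where its p, adjusted by Benjamini-Hochberg over every gene in the fit, was below 0.05. Genes outside a filtered table were tested among those with a mean count of at least 5, a choice made after seeing the data. CPM levels used TMM over the 12 libraries, where 1 count was between 0.0208 and 0.0308 CPM. Levels per kilobase used the MANE Select transcript of GENCODE v44. Patterns were compared on log2(CPM + 0.5). No source says that replicates were separate cultures, so the p-values reflect only how these libraries vary, which may be technical, and floors of 3 counts cover counting error only. No pair of replicates was alike within counting error.

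The 10 genes and the companion lists were chosen with earlier results of these data known. Named besides the 10 were the 2 largest called rises and falls of each list in each comparison (mean of at least 1 CPM), paralogs, NOTCH1 and SOX2, and the 3 genes closest in pattern to VIM, CAV1 and TAGLN. The text names a part of these, and 1 companion list is not reported here. Of 155 list and marker genes, 8 stood under an older symbol and were matched through RefSeq synonyms. Marker lists covered mammary epithelium, myoepithelium, smooth muscle, fibroblasts, endothelium and leukocytes. Alternatives were RLE factors, library totals, other filters, limma-voom, DESeq2 1.42.0, 1 fit over 12 libraries, blocking on replicate number, a 2-fold threshold test and leaving out each library. The scripts were tested on simulated data.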

Additional observations from a re-analysis of the deposited data

How the results depend on the processing

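Apart from the test against a 2-fold change, 394 of 406 values of the 10 genes kept their direction and their side of the threshold under the alternatives. Tested against a log2 fold change of 1, fewer genes passed, since this test asks for a larger difference: 0 higher and 0 lower after SOX2, 1 higher and 0 lower after N1-ICD, and 4 higher and 1 lower between the lines (edgeR). At an unadjusted p under 0.05 these counts were 0 and 0, 1 and 1, and 4 and 1. The other tools were run without this requirement. The call of CAV1 after SOX2 was lost in 4 of the fits that leave out a library (log2 fold changes 0.19 to 0.27). The uncalled difference of VIM between the lines changed sign with library totals alone (0.00732), with a mean count of at least 5 (0.0698) and with no filter (0.0784), and lay between -0.0213 and 0.0141 when libraries were left out. The median of the genes of the main test was -0.0043, against 0.0661 and 0.0748 with these filters. The difference of TPM2 was 0.0281 without MB157R iEV replicate 3, and lay down to -0.255 without the other libraries. The cause of these changes was not tested. The counts of members called did not change when libraries were left out, except where CAV1 after SOX2 was lost (3 to 4 higher). Of the 30 neighbouring pairs of levels, 25 did not overlap with RLE factors and 27 with library totals alone, where the order changed for VIM only.

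Replicate numbers are shared across groups, but the labels do not say that they mark a common batch. Same-numbered libraries did not deviate together (correlations between -0.15 and 0.06 over 12091 genes). With a replicate block the counts of members called stayed at 5 higher and 2 lower between the lines, 4 and 4 after SOX2, and 4 and 6 after N1-ICD, while calls over all genes numbered 10247, 7019 and 6422 against 10318, 7237 and 6621 without the block. Depth limits ACTA2 in parental cells, which rests on 18 and 75 counts over 3 libraries.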

Other observations

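Summed levels of marker lists for other cell types also differed between groups. They are given as values and were not tested, and a sum can rest on few of its genes. Myoepithelial markers summed to between 6946 and 8684 CPM in MB157R iN1-ICD and between 1275 and 1314 CPM in MB157R iEV libraries, and to between 238 and 269 CPM in MB157 iSOX2 and between 941 and 998 CPM in MB157 iEV libraries. After N1-ICD KRT14, KRT17, KRT5 and OXTR rose (log2 fold changes 6.58, 3.55, 1.58 and 0.60), TP63 fell (-0.42) and MYLK was not called. The last markers of this list, CNN1 and ACTG2, averaged 0.655 and 0.0386 CPM in MB157R iN1-ICD libraries. MYH11, the smooth muscle myosin heavy chain, averaged 7.08 CPM in MB157 iSOX2 against 0.121 CPM in MB157 iEV libraries, while DES and MYOCD had no counts in either. Endothelial markers summed to between 44.9 and 49.8 CPM in MB157R iN1-ICD and between 4.24 and 4.70 CPM in MB157R iEV libraries, and to between 103 and 112 CPM in MB157 iSOX2 and between 7.46 and 8.32 CPM in MB157 iEV libraries. In MB157 iSOX2 cells 3 of the 5 averaged 1 CPM or more, with PECAM1 at a log2 fold change of 11.7 against MB157 iEV. Fibroblast markers summed to between 160 and 169 CPM in MB157R iN1-ICD and between 76.6 and 89.7 CPM in MB157R iEV libraries, with DCN at 0 in both, and to between 69.3 and 75.9 CPM in MB157 iSOX2 and between 42.6 and 50.2 CPM in MB157 iEV libraries. Leukocyte markers summed to between 2.67 and 3.44 CPM in MB157R iN1-ICD, 0.344 and 0.441 CPM in MB157R iEV, 6.98 and 8.72 CPM in MB157 iSOX2 and 35.8 and 39.4 CPM in MB157 iEV libraries, with CD3E at 0 throughout. Only 1 of the 5 leukocyte markers averaged 1 CPM or more in MB157 iEV libraries. The part of any of these in the levels of the 10 genes was not tested.

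The deposited filtered tables leave out most genes that the count table lists under an older symbol. Of entries with a mean count of at least 1000, 40 of 500 (8%) under an older symbol appear in a filtered table, against 7539 of 7601 (99.2%) under a current symbol. Cavin-1, whose lowest library held 127.8 CPM, is among those left out, as are CTGF and CYR61. Results that start from the filtered tables therefore do not cover caveola coat genes or these YAP targets, and the cause of the gap was not tested.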
